A study of Mus musculus with 27 samples.

Results

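The clones gs2_B4 and gs1B8 are lines made from 4T1, a mouse mammary tumour cell line, in which CRISPR-Cas9 was used to knock out dynamin-related protein 1 (Drp1, encoded by Dnm1l). They share genotype and received no drug, so a comparison between them shows how far clones of 1 genotype differ. The libraries were picked by the clone code in the column names of the count table, 3 for gs2_B4 and 3 for gs1B8, which makes 6 of the 27 libraries of the series. Each clone is a single line, and the sources used here state neither the guide sequences nor which code is clone 1 and which is clone 2 of the sample labels. Wild-type parental 4T1 cells, also untreated and with 3 libraries, are given beside both clones as the level of the line they were made from. The same fit held the Fis1 KO clones gs2_F6 and gs1_B11 and the Mff KO clones gs1_C8 and gs1_B4, and the remaining libraries of the series are parental cells given leflunomide or DMSO. All 55401 genes of the table were considered, and 13941 passed the filter on low counts and were tested.

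Drp1 is a cytosolic GTPase that is recruited to the outer mitochondrial membrane by the adaptors Mff, Mief1, Mief2 and Fis1, where it assembles into rings and cuts the mitochondrion. Fusion is the opposing process, carried out by Mfn1 and Mfn2 on the outer membrane and by Opa1 on the inner one, and cells without Drp1 hold long, connected mitochondria. A clonal line is grown out from 1 edited cell.

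Library totals of the 6 Drp1 KO libraries ran from 23863311 to 26929711 counts, and ribosomal RNA took 2.09 to 3.06% of their counts. Levels are counts scaled to a common library total (CPM), and differences are log2 of gs2_B4 over gs1B8, so that a positive value means a higher level in gs2_B4. A gene is called where the adjusted p of edgeR's quasi-likelihood test with Benjamini-Hochberg adjustment was below 0.05. The labels do not say whether replicates are separate cultures, so each p-value covers only the spread between libraries of 1 group, which may be technical. That spread was estimated over all 21 libraries of the fit, those of the Drp1, Fis1 and Mff KO clones and of parental cells. Carcinoma markers (Epcam, Cdh1 and 6 keratins) summed to 2950 to 3370 CPM in gs2_B4, 2510 to 2680 in gs1B8 and 3030 to 3060 in parental libraries, while endothelial and erythroid markers stayed below 0.5 CPM. Fibroblast markers summed to 5.64 to 6.57 CPM in gs2_B4, 7.71 to 8.57 in gs1B8 and 9.39 to 10.3 in parental cells, with 5 of 10 at 0 counts in each. Leukocyte markers summed to 8.66 to 9.48 CPM in gs2_B4, 7.28 to 7.58 in gs1B8 and 8.66 to 9.12 in parental cells, with 7, 6 and 6 of the 12 at 0 counts. In such bulk libraries, fewer cells of a kind and less RNA per cell cannot be told apart.

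The targeted gene was measured first. Dnm1l (ENSMUSG00000022789.15, GRCm38, chromosome 16, 16312230 to 16358959) had 42.6, 41.2 and 40.4 CPM in gs2_B4, 71.2, 67.3 and 68.4 CPM in gs1B8, and 220.0, 217.0 and 225.7 CPM in parental cells. The groups did not overlap, and both clones lay far below the parental libraries. Dnm1l RNA was lower in gs2_B4 than in gs1B8, at 41.4 ± 1.13 CPM against 69.0 ± 2.02 CPM (SD, n = 3 each), a log2 difference of −0.74 ± 0.05 (SE) or 1.67-fold (adjusted p = 9.6e-10, edgeR). Against parental cells the log2 differences were −2.42 for gs2_B4 and −1.68 for gs1B8. The level of the RNA does not show whether a functional protein is still made, and protein was not analysed here.

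Of the 13941 tested genes, 5713 (41.0%) were called between the clones, 2802 higher (20.1%) and 2911 lower (20.9%) in gs2_B4. Most calls were small: the median size of a called difference was 0.36 on the log2 scale, and 832 genes differed at least 2-fold, 563 of them higher and 269 lower in gs2_B4. For scale, 6629 genes (47.6%) were called between the Fis1 KO clones gs2_F6 and gs1_B11 and 7627 (54.7%) between the Mff KO clones gs1_C8 and gs1_B4. These counts were not tested against each other. Against parental cells, 7017 genes (50.3%) were called in gs2_B4 and 4110 (29.5%) in gs1B8, and those comparisons share the same 3 parental libraries. Distances between libraries, taken as the root mean square of the log2 differences over the tested genes, put this in 1 scale. They were 0.760 to 0.791 between a gs2_B4 and a gs1B8 library, 0.412 to 0.427 between libraries of 1 Drp1 KO clone, 0.805 to 0.848 between gs2_B4 and parental libraries, and 0.661 to 0.701 between gs1B8 and parental libraries. The 2 clones thus lay farther from each other than gs1B8 lay from the parental cells, over all 9 pairs of libraries. The plot of level against difference shows that large differences occurred at low and at moderate levels.

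**Figure D1:**
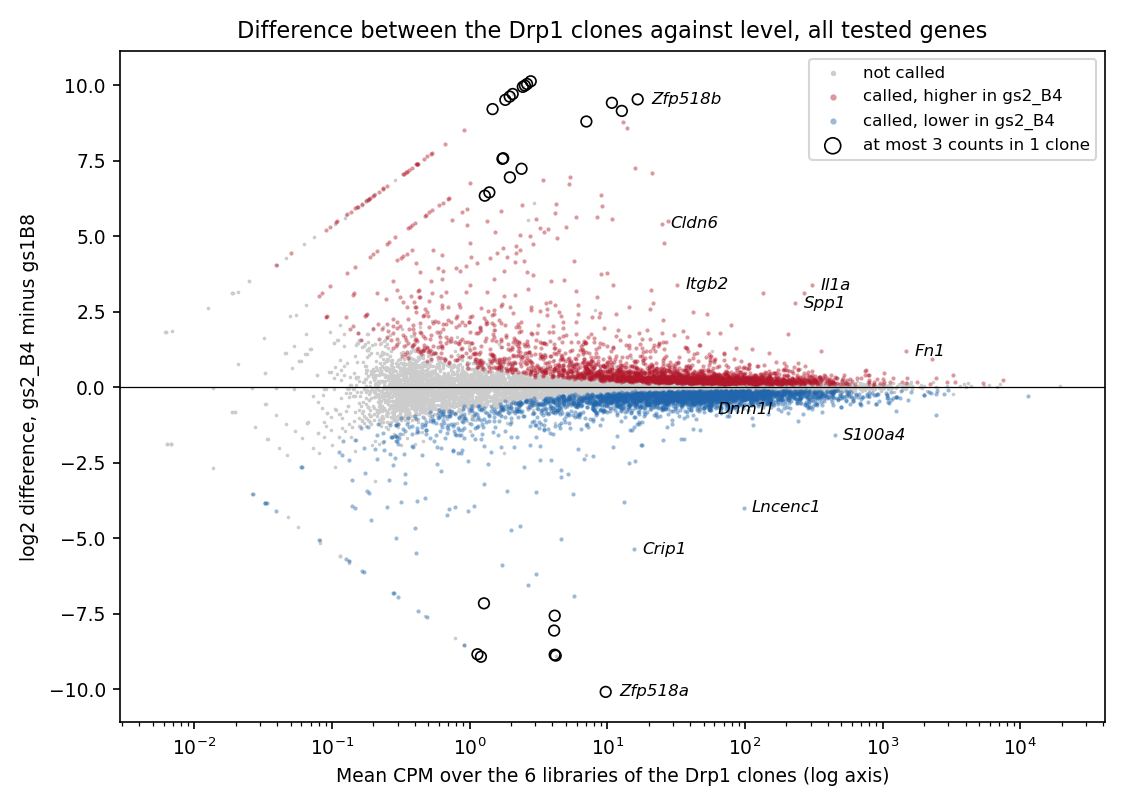
Mean level over the 6 Drp1 KO libraries (CPM, log axis) against the log2 difference of gs2_B4 over gs1B8, 1 point per tested gene, with called genes coloured and open circles for genes with at most 3 counts in 1 clone. A reader should see 2802 genes called above 0, 2911 below it, and a small set of genes near the top and bottom edges that are nearly absent from 1 clone.

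The first pattern in the differences was their place in the genome. Genes of chromosome 19 were lower in gs2_B4 almost as a block: 327 of its 478 tested genes (68.4%) were called lower, with a median log2 difference of −0.46. The median over all tested genes was 0.001, and 20.9% of them were called lower. Chromosome X followed with a median of −0.28 and 222 of 421 genes lower (52.7%), chromosome 3 with −0.24 and 358 of 705 (50.8%), chromosome 8 with −0.20 and 341 of 735 (46.4%), and chromosome 2 with −0.14 and 408 of 1090 (37.4%). Chromosome 15 went the other way, with a median of 0.24 and 270 of 540 genes higher (50.0%). Together, chromosomes 2, 3, 8, 19 and X held 3429 of the tested genes (24.6%), 1656 of the genes called lower (56.9%) and 225 of those called higher (8.03%).

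Every library of a clone showed its chromosome pattern. Set against the parental mean, the median of chromosome 19 was −0.558, −0.558 and −0.547 in the gs2_B4 libraries and −0.121, −0.117 and −0.125 in the gs1B8 libraries. On chromosome 15 the medians were 0.137, 0.116 and 0.104 in gs2_B4 and −0.099, −0.097 and −0.101 in gs1B8, so the clones lay on opposite sides of the parental level. Chromosome 3 also split around that level, at −0.165, −0.165 and −0.152 in gs2_B4 and 0.060, 0.052 and 0.049 in gs1B8. On chromosome X both clones lay below it, at −0.482, −0.458 and −0.435 in gs2_B4 and −0.240, −0.182 and −0.229 in gs1B8. The libraries of the clones overlapped on none of these 4 chromosomes. Leaving out any 1 of the 6 libraries moved the median difference of chromosome 19 only between −0.466 and −0.453, and that of chromosome 15 between 0.227 and 0.242.

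Within these chromosomes the shift had the same direction in every window that held enough genes, and stretches with fewer were not read. In windows of 10 Mb with at least 20 tested genes, all 6 windows of chromosome 19 had a median below 0, between −0.538 and −0.411, and so had all 18 of chromosome 2, 12 of chromosome 3, 12 of chromosome 8 and 10 of chromosome X. All 8 windows of chromosome 15 lay above 0, between 0.129 and 0.469. Chromosome 9 was divided, in segments that were picked after the windows had been seen. Its first 30 Mb had a median of 0.13 over 129 genes, the stretch from 30 to 90 Mb had −0.20 over 387 genes with 47.0% called lower, and that from 100 to 130 Mb had 0.17 over 217 genes with 43.3% called higher. The window from 90 to 100 Mb, part of no segment, had −0.157 over 48 genes. Chromosome 14 also had windows on both sides of 0, from −0.101 to 0.274. Single abundant genes varied around the median of their chromosome: on chromosome 15 the chaperonin subunit Cct5 differed by 0.47 and the RNA-binding protein Hnrnpa1 by 0.12, a call that was lost without 1 library (adjusted p up to 0.11, edgeR), and on X the glycolytic enzyme Pgk1 differed by −0.49 and moesin, Msn, by −0.26. To set single genes against their own chromosome, each gene was also tested after the median difference of its own chromosome had been taken away, which left 2275 genes higher (16.3%) and 2134 lower (15.3%), 1960 and 1735 of them called in the same direction before. DNA copy number was not analysed here, and its part in these shifts was not tested.

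**Figure D2:**
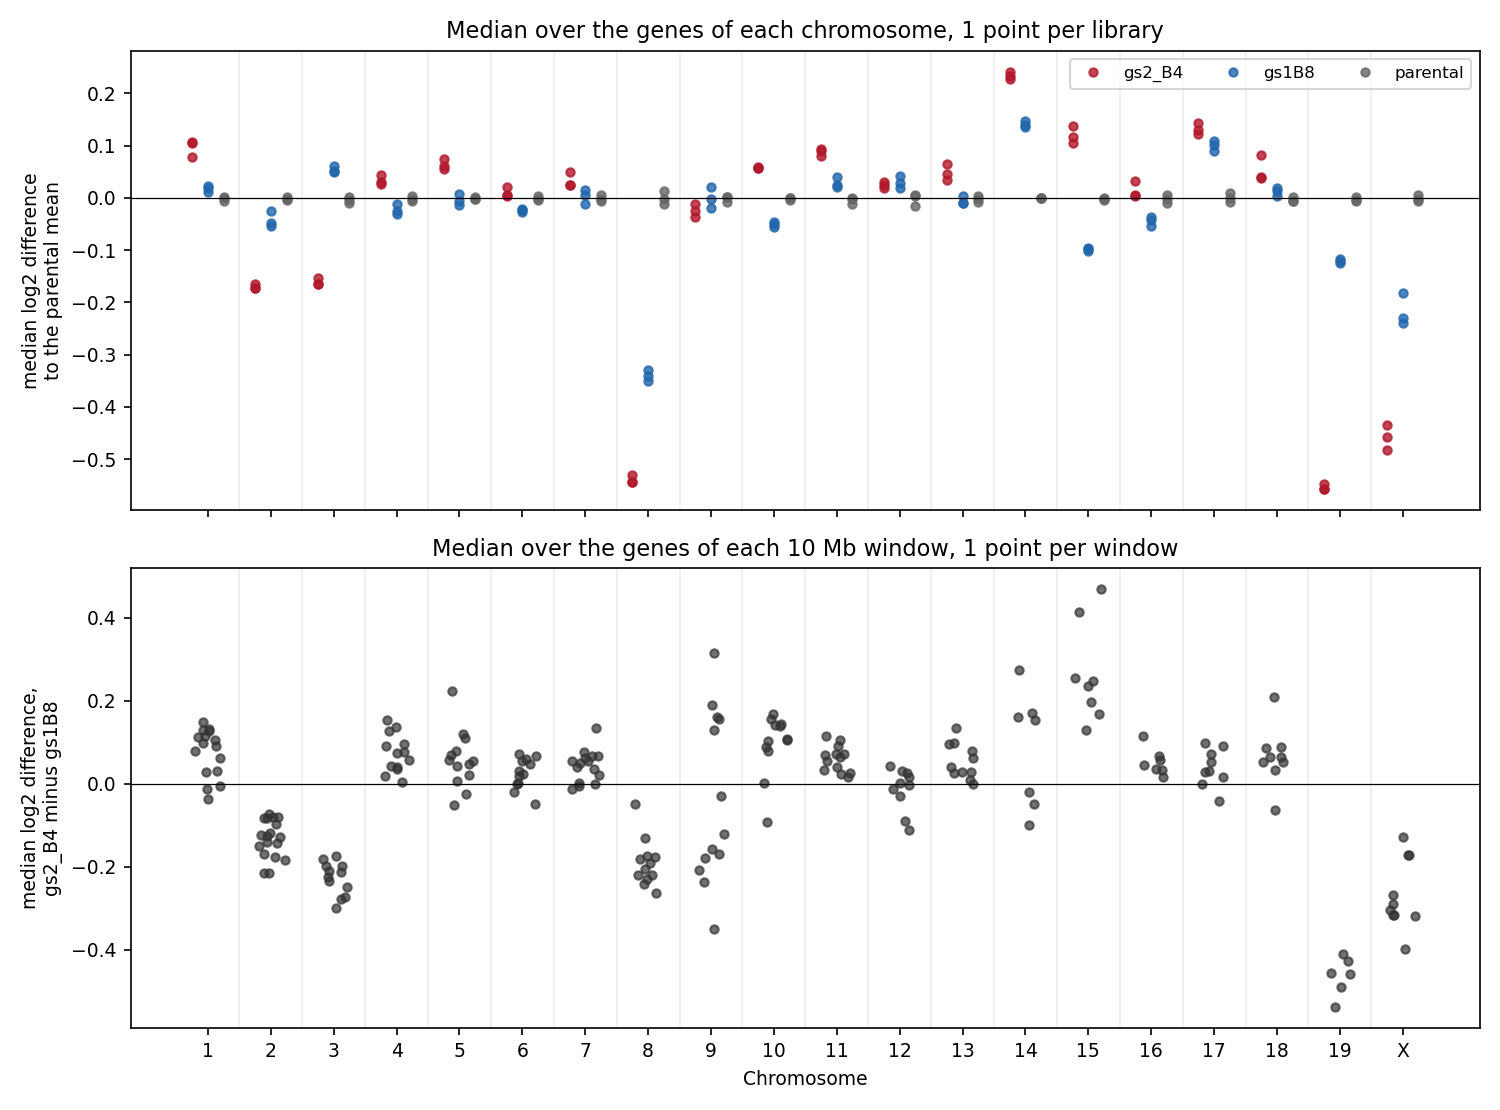
Top: median log2 difference from the parental mean for each chromosome, 1 point per library of gs2_B4, gs1B8 and parental cells. Bottom: median log2 difference of gs2_B4 over gs1B8 in windows of 10 Mb, 1 point per window, grouped by chromosome. Points are scattered sideways at random, so position along a chromosome is not drawn. Chromosomes 19, X, 3, 8 and 2 lie below 0 in every window plotted, chromosome 15 lies above it, and chromosome 9 has windows well to both sides.

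The second pattern was a set of genes that were nearly silent in 1 clone, with at most 3 counts summed over its 3 libraries, and had at least 2 CPM in the other. 18 genes had their reads in gs2_B4 and 9 in gs1B8, and 5 and 4 of these carry only predicted-gene names. Of these 27 genes 4, all with predicted names, did not pass the test or were not tested. Folds of such genes are ratios of summed counts with 95% intervals that cover counting error only, or lower bounds set at a floor of 3 counts over the clone. The largest of these differences by fold involved a pair of paralogs that encode zinc finger proteins. Zfp518b (chromosome 5, 38668484 to 38684826) averaged 33.2 CPM in gs2_B4, 0.039 in gs1B8 and 10.6 in parental cells, 830-fold higher in gs2_B4 (284 to 4030). Zfp518a (chromosome 19, 40894705 to 40917947) averaged 0.0139 CPM in gs2_B4, 19.5 in gs1B8 and 13.2 in parental cells, 1510-fold lower in gs2_B4 (271 to 59800). Each clone therefore had reads of 1 of the 2 paralogs and almost none of the other, while parental cells had both.

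Their promoters are printed with those of Hexa, Lrrk2 and Cldn6 to show the CG content at the start of genes nearly silent in 1 clone and of Cldn6, a gene that kept low levels in gs1B8, since DNA methylation in mammals falls mainly on the C of CG. The sequences come from RefSeq (GRCm38.p6), run 5′ to 3′ over 300 bases around the start of transcription, and have each CG in capitals, a motif that reads the same on both strands.
Zfp518b (chr5:38684777-38685076, - strand): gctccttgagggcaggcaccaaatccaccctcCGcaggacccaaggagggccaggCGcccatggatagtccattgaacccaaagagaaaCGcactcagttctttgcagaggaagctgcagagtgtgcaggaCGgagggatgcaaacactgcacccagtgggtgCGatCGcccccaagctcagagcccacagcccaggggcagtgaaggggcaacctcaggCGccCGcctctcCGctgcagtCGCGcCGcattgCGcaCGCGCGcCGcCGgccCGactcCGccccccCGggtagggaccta
Zfp518a (chr19:40894455-40894754, + strand): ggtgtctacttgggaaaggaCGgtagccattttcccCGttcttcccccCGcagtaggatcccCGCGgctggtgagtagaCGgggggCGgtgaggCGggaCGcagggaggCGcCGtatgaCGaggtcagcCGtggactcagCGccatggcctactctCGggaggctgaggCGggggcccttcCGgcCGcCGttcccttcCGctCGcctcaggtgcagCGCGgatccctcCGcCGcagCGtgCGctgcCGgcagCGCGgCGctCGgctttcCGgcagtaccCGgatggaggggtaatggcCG
Hexa (chr9:59539290-59539589, + strand): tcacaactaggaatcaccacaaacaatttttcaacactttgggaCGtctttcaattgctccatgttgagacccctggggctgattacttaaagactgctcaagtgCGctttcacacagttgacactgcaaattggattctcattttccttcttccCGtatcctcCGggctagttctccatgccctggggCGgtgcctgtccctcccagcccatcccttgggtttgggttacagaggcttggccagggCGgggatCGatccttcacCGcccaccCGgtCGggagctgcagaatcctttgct
Lrrk2 (chr15:91672974-91673273, + strand): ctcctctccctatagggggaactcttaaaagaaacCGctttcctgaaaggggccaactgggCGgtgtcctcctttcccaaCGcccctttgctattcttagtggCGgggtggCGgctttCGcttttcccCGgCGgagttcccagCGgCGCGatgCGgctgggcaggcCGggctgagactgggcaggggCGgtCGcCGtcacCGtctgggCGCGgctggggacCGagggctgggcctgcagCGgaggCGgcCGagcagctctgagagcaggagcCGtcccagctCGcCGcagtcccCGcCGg
Cldn6 (chr17:23679115-23679414, + strand): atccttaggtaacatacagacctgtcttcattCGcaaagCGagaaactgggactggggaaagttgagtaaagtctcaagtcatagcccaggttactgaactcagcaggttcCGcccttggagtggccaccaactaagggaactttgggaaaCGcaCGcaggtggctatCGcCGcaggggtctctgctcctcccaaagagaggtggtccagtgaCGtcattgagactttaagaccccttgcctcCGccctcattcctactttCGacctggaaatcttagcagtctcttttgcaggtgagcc

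These windows hold 21 CG in Zfp518b, 35 in Zfp518a, 10 in Hexa, 28 in Lrrk2 and 10 in Cldn6. Of the 32851 RefSeq promoters of the same length, 94.6% hold at least 1 CG and the median is 7, and 24.8, 6.95, 43.5, 14.2 and 43.5% hold at least as many as these 5. For 14 of the 18 nearly silent genes with a proper name a RefSeq promoter was matched, and the median over these genes was 19.5 CG, with a gene's mean taken where it has more than 1 promoter. The 32851 promoters were not limited to genes with reads in these cells, whereas the nearly silent genes had at least 2 CPM in 1 clone. DNA methylation was not analysed here, and a count of CG describes the window only.

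Of the other genes with reads in gs2_B4, several had been well above the floor in parental cells. Fam111a, a protease that acts at replication forks, averaged 25.5 CPM in gs2_B4, 0.0409 in gs1B8 and 75.7 in parental cells, 639-fold higher in gs2_B4 (218 to 3100). Lrrk2, a kinase mutated in familial Parkinson disease in humans, averaged 14.1 CPM in gs2_B4, 0.0273 in gs1B8 and 14.3 in parental cells, 528-fold higher in gs2_B4 (146 to 4360). Hexa, a subunit of lysosomal beta-hexosaminidase, averaged 21.6 CPM in gs2_B4, 0.0254 in gs1B8 and 3.65 in parental cells, 810-fold higher in gs2_B4 (224 to 6700). Others were low in parental cells too: Tgfbr3, the TGF-beta coreceptor betaglycan, averaged 5.56 CPM in gs2_B4, had no count in gs1B8 and 0.562 CPM in parental cells, at least 140-fold higher in gs2_B4. Slit2, a guidance ligand of Robo receptors, averaged 3.90 CPM in gs2_B4, 0.0263 in gs1B8 and 0.109 in parental cells, 146-fold higher in gs2_B4 (40.1 to 1210). Over the 18 genes, parental cells had at least 2 CPM of 7 and less than 1 CPM of 9.

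Among the 9 genes with reads in gs1B8, parental cells had at least 2 CPM of 6. Eomes, a T-box transcription factor, averaged 0.0126 CPM in gs2_B4, 8.29 in gs1B8 and 13.2 in parental cells, 642-fold lower in gs2_B4 (115 to 25400). It overlaps Gm33460, with which its reads could be shared. Fstl3, a secreted inhibitor of activin, averaged 0.0416 CPM in gs2_B4, 8.26 in gs1B8 and 9.37 in parental cells, 214-fold lower in gs2_B4 (72.8 to 1040). Dsc2, a desmosomal cadherin, had 0, 0.0832 and 0 CPM in gs2_B4, 8.69, 7.81 and 8.08 in gs1B8, and 6.49, 4.93 and 3.96 in parental cells, 318-fold lower in gs2_B4 (87.6 to 2630). Hsd17b11, a dehydrogenase of lipid droplets, had no count in gs2_B4 and averaged 2.28 CPM in gs1B8 and 2.17 in parental cells, at least 58.9-fold lower in gs2_B4. Other knockout clones also had or lacked some of these genes: Zfp518b averaged 0 CPM in gs1_B11, 0 in gs2_F6, 0.0361 in gs1_B4 and 16 in gs1_C8, and Hexa averaged 0, 0, 1.98 and 10.3. Zfp518a was at 0 CPM in gs1_C8 and averaged 14.4 in gs1_B11, 9.81 in gs2_F6 and 10.8 in gs1_B4.

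**Figure D3:**
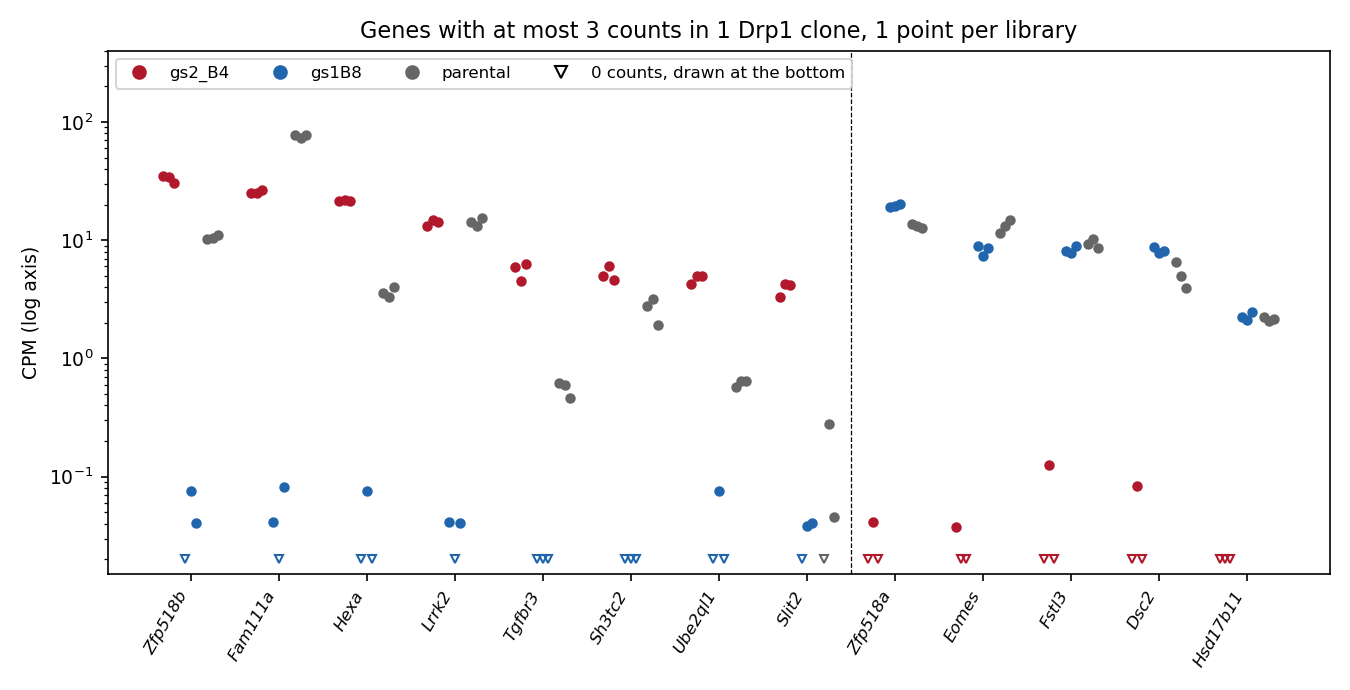
Levels (CPM, log axis) of 13 genes with at most 3 counts in 1 Drp1 KO clone, 1 point per library of gs2_B4, gs1B8 and parental cells, with open triangles at the bottom for libraries with 0 counts. The 8 genes left of the line have reads in gs2_B4 and the 5 right of it in gs1B8, and the parental libraries lie near the clone that has the gene for some, such as Lrrk2 and Hsd17b11, and between the clones for others, such as Tgfbr3.

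Genes that kept some reads in both clones showed steps nearly as large. Parvb, a focal adhesion protein that binds actin, had 24.6, 25.5 and 27.3 CPM in gs2_B4, 0.0820, 0.0381 and 0.0408 in gs1B8, and 18.8, 21.5 and 18.9 in parental cells. Vgll3, a cofactor of TEAD transcription factors, had 25.2, 31.2 and 26.6 CPM in gs2_B4, 0.0820, 0.0762 and 0.0408 in gs1B8, and 9.04, 9.10 and 7.74 in parental cells. Crip1, a small LIM domain protein, had 0.716, 0.915 and 0.590 CPM in gs2_B4, 29.4, 32.6 and 29.3 in gs1B8, and 70.7, 73.6 and 83.5 in parental cells. In all 3 genes the clones were separated by more than their whole range, and parental cells had reads of each. Other genes were low in parental cells and in gs1B8. Cldn6, a tight junction claudin of embryonic epithelia, had 50.6, 50.4 and 46.5 CPM in gs2_B4, 1.148, 1.03 and 1.26 in gs1B8, and 0.0481, 0.321 and 0.414 in parental cells, a log2 difference of 5.42 ± 0.15 (SE; adjusted p = 4.7e-16, edgeR). Its neighbour and paralog Cldn9 had 35.2, 29.9 and 29.8 CPM in gs2_B4, 0.205, 0.267 and 0.122 in gs1B8, and 0.337, 0.401 and 0.322 in parental cells. How reads were divided between these 2 similar genes is uncertain. Zfp985, a zinc finger gene of chromosome 4, had 39.7, 44.5 and 42.6 CPM in gs2_B4 and at most 0.922 CPM in any gs1B8 or parental library, and its cluster neighbours Zfp600 and Zfp988 were among the genes nearly silent in gs1B8 (chosen after their values were seen). Reads may likewise be shared within that gene family. Rhox5, a homeobox gene of the X chromosome, averaged 10.9 CPM in gs2_B4, 0.603 in gs1B8 and 0.578 in parental cells.

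The remaining differences are described by lists of genes with a known role, each read against the 20.1% of tested genes called higher and the 20.9% called lower. Counts relative to the chromosomes are to be read against 16.3% higher and 15.3% lower over all tested genes. The plot of these lists shows cytokines and NF-kB genes at one end and genes of mitosis at the other. Mitochondrial lists, which hold the process that was targeted, lay between them.

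**Figure D4:**
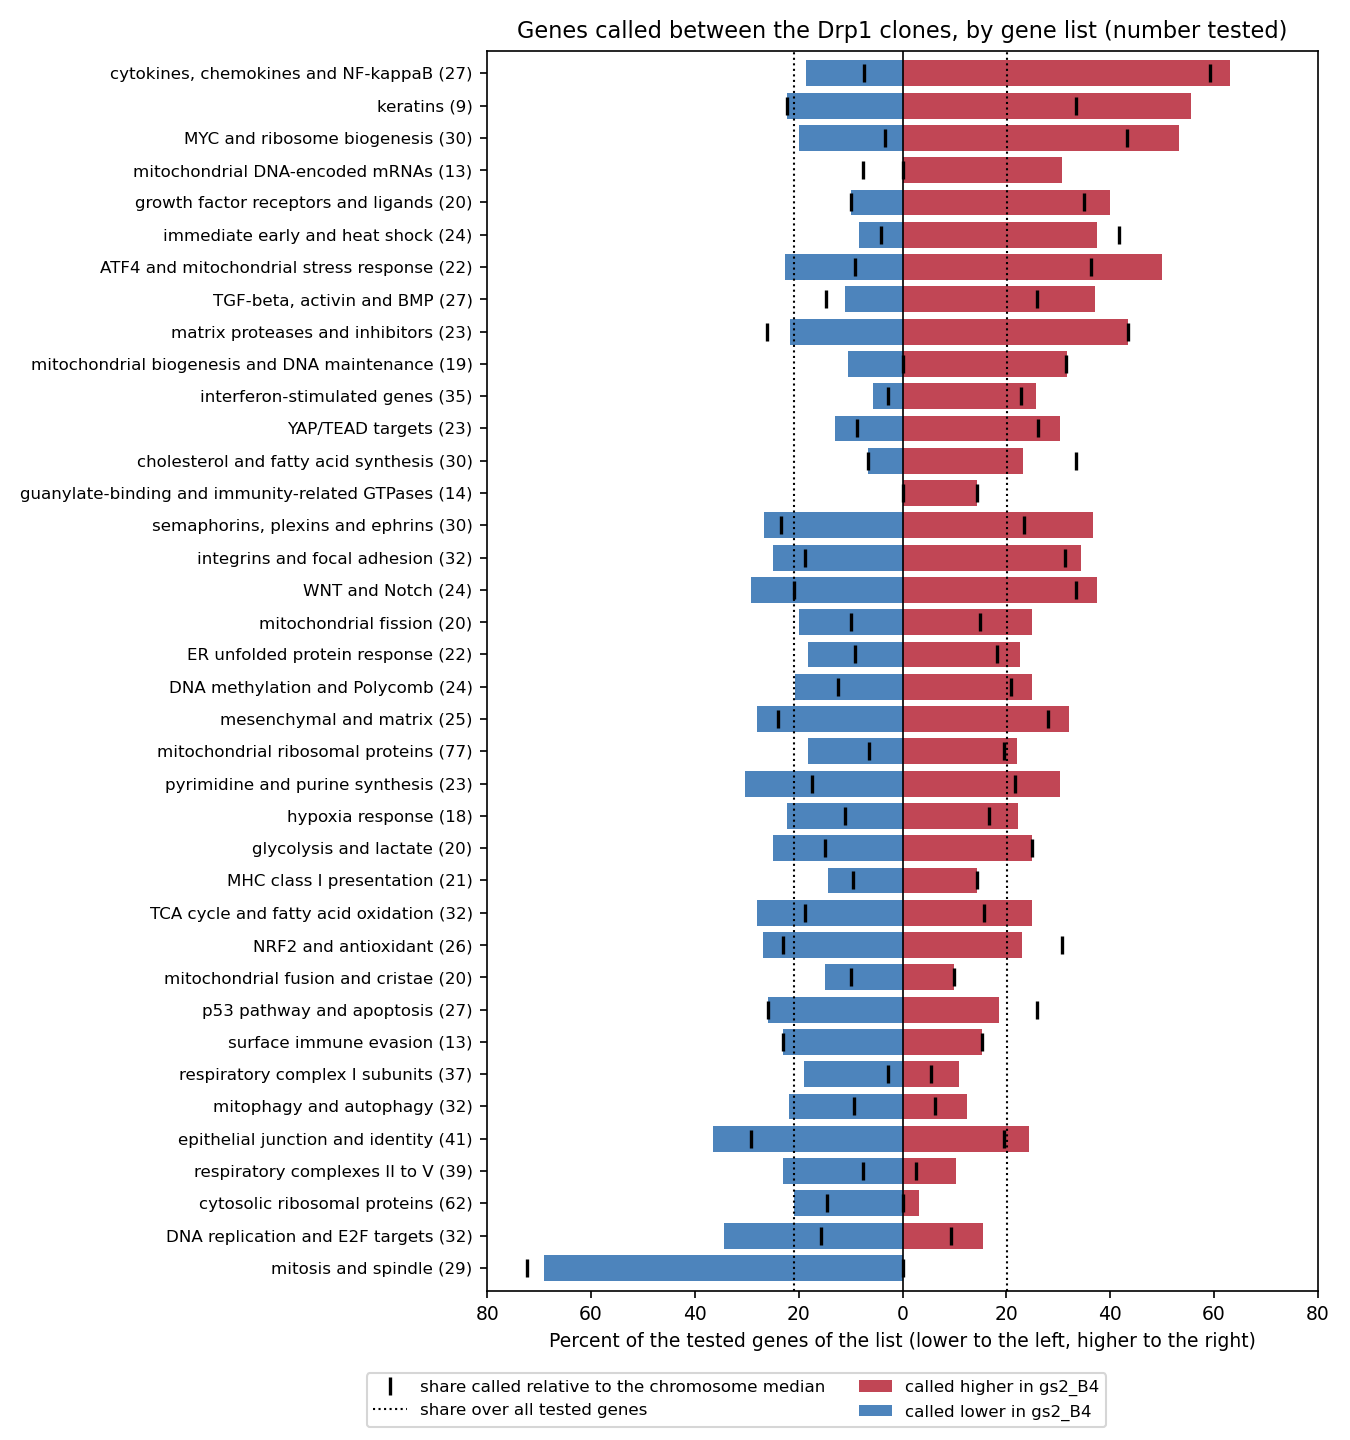
Share of the tested genes of each list that were called higher (right) or lower (left) in gs2_B4 than in gs1B8, in percent, with the number tested in brackets. Dotted lines mark the shares over all tested genes, for the bars only. Black ticks mark the shares after the chromosome median was taken away, where all tested genes had 16.3% higher and 15.3% lower (not drawn). The cytokine list reaches 17 of 27 genes higher and the mitosis list 20 of 29 lower.

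The cytokine and chemokine list had the largest share of genes called higher of the lists plotted, 63.0%. Of 27 tested genes, 17 were called higher and 5 lower in gs2_B4, with a median log2 difference of 0.73, and relative to the chromosome medians 16 were higher and 2 lower. Il1a, the alarmin interleukin 1 alpha, had 403.8, 542.6 and 724.9 CPM in gs2_B4, 35.1, 53.2 and 73.3 in gs1B8, and 50.8, 77.7 and 98.6 in parental cells. Cxcl5, a chemokine that attracts neutrophils, had 366.2, 416.8 and 661.2 CPM in gs2_B4, 60.01, 48.5 and 59.7 in gs1B8, and 123.9, 125.6 and 138.9 in parental cells. Cxcl1, a chemokine with the same receptor, had 168.8, 203.7 and 351.7 CPM in gs2_B4, 25.3, 24.9 and 32.7 in gs1B8, and 41.1, 48.8 and 67.5 in parental cells. All gs2_B4 libraries lay above all gs1B8 libraries in these 3 genes, although the gs2_B4 libraries also spread widely among themselves. Il1a rose with the column order of the libraries in all 3 groups, and Cxcl5 and Cxcl1 did so in gs2_B4 and parental cells. The log2 differences were 3.37 ± 0.41 for Il1a (adjusted p = 1.6e-06), 3.10 ± 0.27 for Cxcl5 (2.1e-08) and 3.13 ± 0.36 for Cxcl1 (6.8e-07, SE, edgeR).

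For Cxcl3 the clones lay differently to the parental cells, at 13.5, 17.8 and 29.2 CPM in gs2_B4, 2.09, 1.75 and 1.92 in gs1B8, and 19, 19.4 and 26.3 in parental cells. Here it was gs1B8 that stood apart, and gs2_B4 overlapped the parental libraries. Further members that rose in gs2_B4 were Csf3, the granulocyte growth factor, at 89.3 CPM against 16.8 in gs1B8, Ptgs2, the inducible cyclooxygenase, with a log2 difference of 0.95, and Nfkbiz, a nuclear cofactor of NF-kB, with 1.13. The subunits of NF-kB itself went the other way before chromosomes were considered: Rela differed by −0.55, Nfkb2 by −0.51, Relb by −0.30 and Nfkb1 by −0.24. Relative to their chromosomes, Relb was still lower, by −0.34 (adjusted p = 0.00017, edgeR), while Rela, Nfkb2 and Nfkb1 differed by −0.09, −0.05 and −0.0006 and did not pass the test. Csf3, Ptgs2, Nfkbiz and the NF-kB subunits were chosen for the text after their values were seen. Of the leukocyte markers 2 had enough counts to be tested: the macrophage marker Cd68 was higher in gs2_B4, at 8.30 CPM in gs2_B4, 5.99 in gs1B8 and 4.38 in parental cells. Csf1r, a receptor of macrophages, was lower in gs2_B4, at 0.78 CPM in gs2_B4, 1.26 in gs1B8 and 4.36 in parental cells, a call that was lost without 1 library (adjusted p up to 0.13, edgeR), while Cd3e, Nkg7 and Adgre1 were at 0 counts in all 3 groups. Il1a overlaps Gm14023, with which reads could be shared.

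Interferon-stimulated genes leaned the same way with fewer calls, 9 of 35 higher (25.7%) and 2 lower (5.71%), and a median of 0.44. Against parental cells the median of this list was 0.07 in gs2_B4 and −0.21 in gs1B8, while that of the cytokine list was 0.73 and −0.24. Isg15, a ubiquitin-like interferon target, averaged 7.42 CPM in gs2_B4, 3.24 in gs1B8 and 4.81 in parental cells, a difference of 1.19 between the clones. Ddx58, which encodes the RNA sensor RIG-I, differed by −0.40. The list of guanylate-binding and immunity-related GTPases had 2 of 14 genes higher and none lower, and both of those calls were lost when 1 library was left out.

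Spp1, the secreted matrix protein osteopontin, had 414.4, 398.2 and 406.6 CPM in gs2_B4, 64.1, 56.1 and 56.6 in gs1B8, and 75.8, 70.2 and 91.3 in parental cells. Itgb2, the integrin beta chain usual in leukocytes, had 64.4, 55.2 and 57.0 CPM in gs2_B4, 6.40, 4.73 and 5.63 in gs1B8, and 18.4, 14.3 and 16.99 in parental cells. Fn1, fibronectin, had 2074, 2199 and 1884 CPM in gs2_B4, 823.5, 880.6 and 979.7 in gs1B8, and 894.6, 971.7 and 826.9 in parental cells. The clones did not overlap in any of these 3 genes, and gs1B8 overlapped parental cells in Fn1 alone. Their log2 differences were 2.79 ± 0.13 for Spp1 (adjusted p = 1.9e-12), 3.40 ± 0.12 for Itgb2 (1.7e-14) and 1.20 ± 0.09 for Fn1 (1.5e-09, SE, edgeR). Over the integrin and focal adhesion list, 11 of 32 genes were called higher and 8 lower, with a median of 0.06, and without 1 library at a time the higher calls numbered 7 to 12. Itgb7, another beta chain of leukocyte integrins, rose by 2.72 and Itga5, the alpha chain of the fibronectin receptor, by 0.60. Itgb1, the beta chain most widely shared among integrins, fell by 0.42, the vitronectin receptor chain Itgav by 0.57 and the laminin receptor chain Itga6 by 0.44. Itgav and Itga6 were named after their values were seen, and Fn1 overlaps Apol7d.

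Matrix proteases and their inhibitors had 10 of 23 genes higher and 5 lower, with a median of 0.27. Mmp3, stromelysin 1, had 34.3, 38.1 and 46.5 CPM in gs2_B4 and 16.4, 14.3 and 11.5 in gs1B8, a log2 difference of 1.49. Mmp9, a gelatinase, had 222.5, 233.6 and 218.1 CPM in gs2_B4, 357.4, 364.4 and 348.4 in gs1B8, and 84.8, 94.2 and 77.1 in parental cells. Thus Mmp9 was lower in gs2_B4 than in gs1B8, by −0.67, while both clones lay above parental cells. Adam8, a membrane protease, had 4.67, 4.95 and 5.13 CPM in gs2_B4, 26.9, 28.4 and 25.8 in gs1B8, and 26.9, 25.4 and 22.98 in parental cells, a difference of −2.46. S100a4, a calcium-binding protein known for its link to metastasis, had 233.1, 241.8 and 199.8 CPM in gs2_B4, 698.5, 695.8 and 636.0 in gs1B8, and 613.6, 580.3 and 723.0 in parental cells. It fell by 1.59 ± 0.12 (SE; adjusted p = 1.9e-09, edgeR), and by 1.35 relative to chromosome 3. Adam8 and S100a4 overlap other annotated genes, Gm16201 and Gm42674, so part of their reads could belong to those.

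The mitosis and spindle list had the largest share of genes called lower of the lists plotted, 69.0%. Of 29 tested genes, none was called higher and 20 were called lower in gs2_B4, with a median of −0.25, and relative to the chromosome medians 21 were lower and none higher. Ccna2, the cyclin of S phase and mitotic entry, had 297.6, 287.3 and 288.2 CPM in gs2_B4, 442.1, 444.0 and 428.5 in gs1B8, and 454.3, 456.6 and 451.4 in parental cells. Kif11, the kinesin that pushes spindle poles apart, had 158.2, 161.2 and 166.3 CPM in gs2_B4, 257.7, 265.3 and 264.3 in gs1B8, and 280.9, 286.5 and 277.9 in parental cells. Mki67, the proliferation antigen that coats mitotic chromosomes, had 708.6, 732.2 and 732.8 CPM in gs2_B4, 1066, 1053 and 1065 in gs1B8, and 1222, 1141 and 1069 in parental cells. The clones did not overlap in any of the 3, and gs2_B4 was the lowest group. Ccna2 differed by −0.59 ± 0.03 (adjusted p = 1.1e-11), Kif11 by −0.70 ± 0.04 (7.7e-11) and Mki67 by −0.55 ± 0.07 (2.2e-06, SE, edgeR). Relative to their chromosomes these were −0.35, −0.24 and −0.59, so Kif11, a gene of chromosome 19, lost the largest part. Smaller decreases reached Foxm1, the transcription factor of the mitotic genes (−0.27), and the mitotic kinase gene Plk1 (−0.12), whose call was lost when 1 library was left out (adjusted p up to 0.089, edgeR). Foxm1 and Plk1 were named after their values were seen, and Ccna2 overlaps Exosc9. Replication and E2F target genes had 11 of 32 lower and 5 higher, and 5 and 3 relative to the chromosomes.

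Myc and genes of ribosome biogenesis were mostly higher. Myc, the transcription factor, had 252.7, 261.4 and 264.1 CPM in gs2_B4, 164.1, 175.1 and 193.9 in gs1B8, and 207.7, 210.5 and 218.8 in parental cells. It was higher in gs2_B4 by 0.55 ± 0.06 (SE; adjusted p = 3.5e-07, edgeR), and by 0.31 relative to chromosome 15 (adjusted p = 0.00044). Of 30 tested genes of the MYC and ribosome biogenesis list 16 were called higher and 6 lower, with a median of 0.14, and 13 and 1 relative to the chromosomes. Rrp9, which processes ribosomal RNA, rose by 0.34 and Bop1, of the large subunit pathway, by 0.32, although Bop1, named after its value was seen, did not pass relative to chromosome 15. Cytosolic ribosomal proteins had 13 of 62 lower (21%, close to the 20.9% of all tested genes) and 2 higher (3.23%, against 20.1%). Their median was −0.06, and 8 of the 13 are encoded on chromosomes 2, 3, 8, 19 or X. Relative to the chromosomes 9 were lower and none higher, with a median of −0.12. Of 20 growth factor genes 8 were higher and 2 lower: Vegfa, the angiogenic factor, had 34.0, 37.8 and 40.6 CPM in gs2_B4, 12.6, 12.8 and 14.5 in gs1B8, and 9.04, 8.58 and 9.58 in parental cells, a difference of 1.5, and the EGF receptor ligand Areg rose by 0.99.

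Junction and identity genes of epithelia split, with 10 of 41 higher and 15 lower and a median of −0.04. Cdh1, E-cadherin, had 223.8, 233.2 and 202.1 CPM in gs2_B4, 378.2, 352.9 and 337.4 in gs1B8, and 408.5, 386.2 and 339.8 in parental cells. The clones did not overlap, and the difference was −0.70 ± 0.08 (SE; adjusted p = 4e-07, edgeR), or −0.49 relative to chromosome 8. Among the other lower genes were some of desmosome proteins: besides Dsc2, Pkp1, a plakophilin of the plaque, had 9.38, 11.1 and 9.33 CPM in gs2_B4, 22.6, 23.4 and 23.4 in gs1B8, and 19.8, 24.9 and 19.8 in parental cells. Dsg2, a desmosomal cadherin, fell by 0.68, Dsp, the plaque linker desmoplakin, by 0.52, and Pkp3, a further plakophilin, by 0.34. The desmosome genes Jup and Pkp2 differed by −0.07 and 0.11 and did not pass. Except for Dsc2 and Pkp1, these were picked out after their values were seen. Epcam, an epithelial adhesion molecule, went up, with 244.8, 231.2 and 222.6 CPM in gs2_B4, 158.5, 148.7 and 150.1 in gs1B8, and 184.0, 175.3 and 190.9 in parental cells. Of 9 tested keratin genes 5 were higher and 2 lower. Krt7, Krt18 and Krt8, all on chromosome 15, were higher by 0.55, 0.42 and 0.40. Relative to that chromosome they differed by 0.31, 0.18 and 0.16, and Krt8 did not pass (adjusted p = 0.27, edgeR). Krt14 and Krt19 were lower, by −0.65 and −0.32, and the call of Krt14 was lost without 1 library (adjusted p up to 0.08, edgeR). Krt7 and Krt8 overlap Gm671 and Gm36026.

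**Figure D5:**
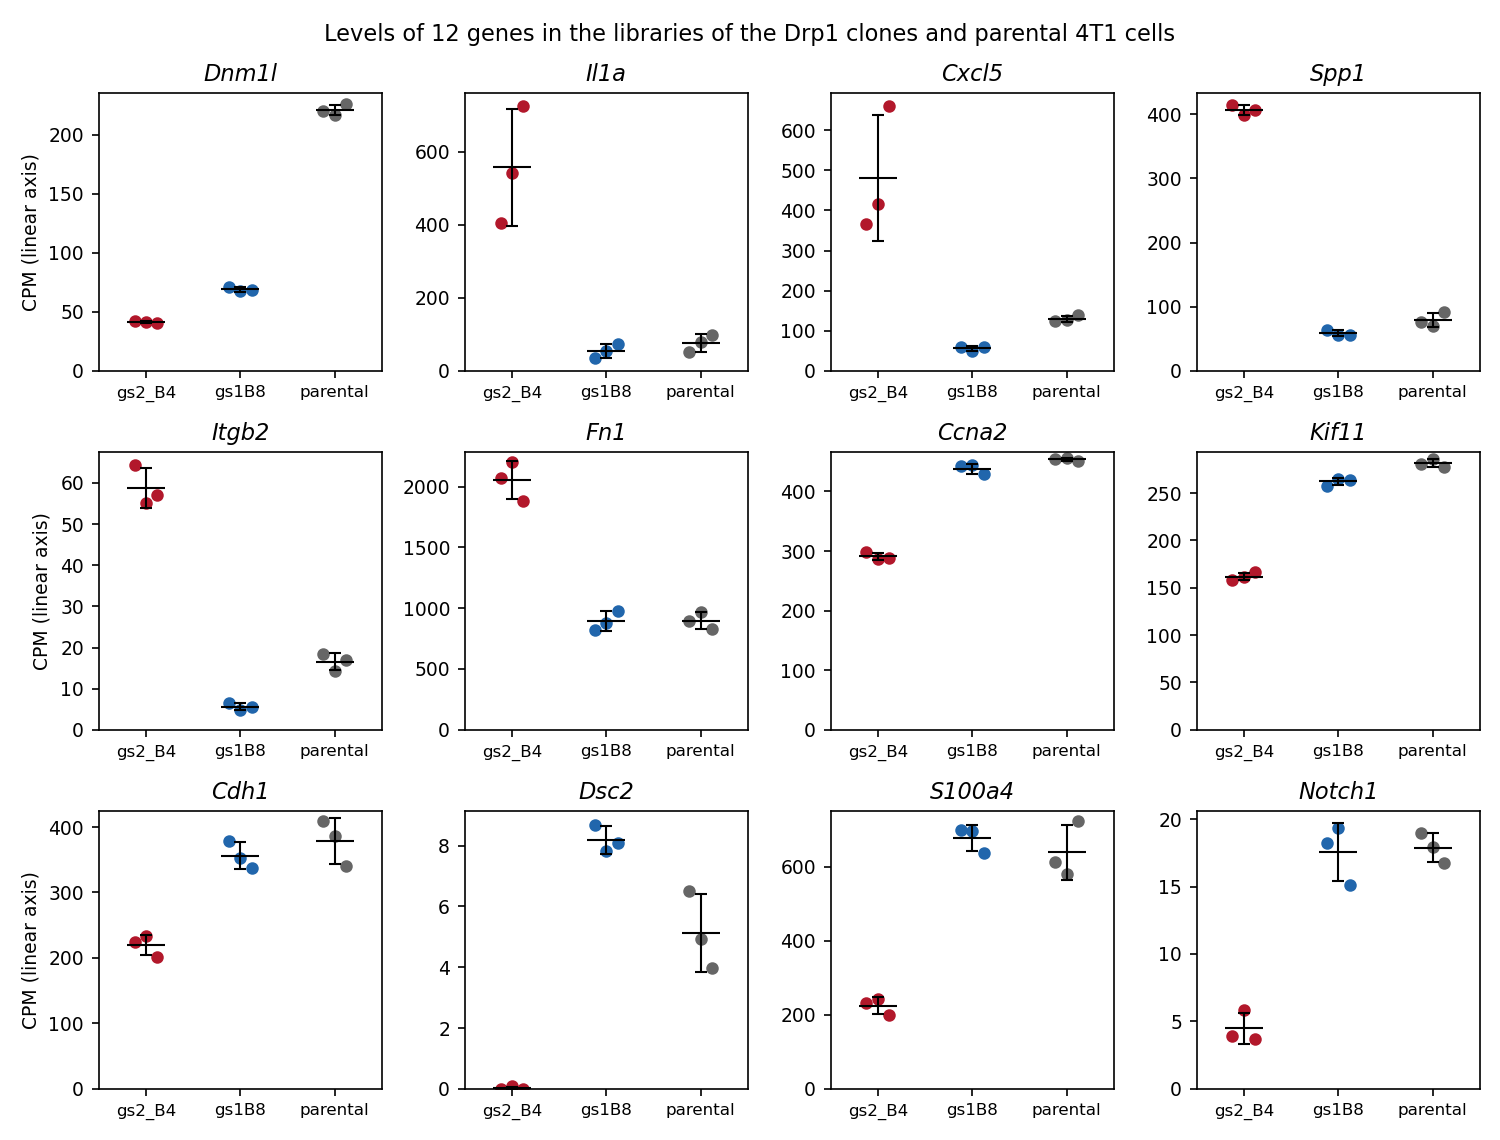
Levels (CPM, linear axes from 0) of 12 genes in gs2_B4, gs1B8 and parental cells, 1 dot per library, with bars for the mean and whiskers for the SD (n = 3 each). Il1a, Cxcl5, Spp1, Itgb2 and Fn1 are highest in gs2_B4, and Ccna2, Kif11, Cdh1, S100a4 and Notch1 are lowest there with gs1B8 near the parental level.

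Genes of WNT and Notch signalling, receptors among them, separated the clones too, with 9 of 24 list genes higher and 7 lower. Notch1, a receptor, had 3.92, 5.82 and 3.69 CPM in gs2_B4, 18.2, 19.4 and 15.1 in gs1B8, and 18.95, 17.96 and 16.8 in parental cells, a difference of −1.98 ± 0.14 (SE; adjusted p = 1.1e-09, edgeR). Fzd7, a WNT receptor, had 27.1, 28.3 and 23.3 CPM in gs2_B4, 7.42, 7.85 and 7.22 in gs1B8, and 12.6, 12.99 and 10.7 in parental cells. The groups overlapped in Notch1 only between gs1B8 and parental cells, and in Fzd7 not at all. Fzd7 rose by 1.80, and Tcf7, a transcription factor that acts with beta-catenin, by 1.45. Among guidance genes, with 11 of 30 higher and 8 lower, Sema3c, a secreted semaphorin, had 31, 37.2 and 45.2 CPM in gs2_B4, 3.98, 4.31 and 3.88 in gs1B8, and 8.90, 7.497 and 5.39 in parental cells. Nrp1, a semaphorin coreceptor, had 27.4, 27.8 and 22.2 CPM in gs2_B4, 72.5, 70.7 and 63.5 in gs1B8, and 82.3, 72.1 and 59.6 in parental cells. The ligand was thus higher, by 3.22, and the coreceptor lower, by −1.42, in gs2_B4.

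Medians of the mitochondrial lists lay between −0.02 and 0.13. Of 20 tested fission genes 5 were called higher and 4 lower, Dnm1l among the lower, with a median of 0.003, and without 1 library at a time the higher calls numbered 3 to 5. Mff averaged 98.1 ± 1.17 CPM in gs2_B4 and 88.1 ± 3.92 CPM in gs1B8 (SD, n = 3 each), a difference of 0.15 (adjusted p = 0.032, edgeR). That call was lost without 1 library (adjusted p up to 0.14) and relative to chromosome 1 (0.06, adjusted p = 0.44). Fis1, the other adaptor knocked out in the study, differed by 0.17 and did not pass (adjusted p = 0.11, edgeR). Mief1, an adaptor encoded on chromosome 15, rose by 0.34, and Marchf5, a ubiquitin ligase of the outer membrane encoded on chromosome 19, fell by 0.54. Relative to those chromosomes the differences were 0.10 and −0.08, and neither passed. Marchf5 overlaps Cpeb3. Mtfp1, an inner membrane protein that promotes fission, averaged 3.90 CPM in gs2_B4, 0.864 in gs1B8 and 2.32 in parental cells, a difference of 2.17 ± 0.20 (SE; adjusted p = 4.1e-08, edgeR), and was named after its values were seen.

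Of the fusion proteins, Mfn1 had 58.7, 61.9 and 59.3 CPM in gs2_B4, 76.8, 76.5 and 79.2 in gs1B8, and 74.7, 77.7 and 78.2 in parental cells. It was lower in gs2_B4 by −0.37 ± 0.04 (SE; adjusted p = 4.4e-07, edgeR), and by −0.13 relative to chromosome 3 (adjusted p = 0.016). Mfn2 differed by −0.04 (adjusted p = 0.67) and Opa1 by 0.003 (adjusted p = 0.96), and neither passed. Over the list of 20 fusion and cristae genes 2 were higher and 3 lower. Dhodh, the inner membrane enzyme of pyrimidine synthesis that leflunomide's active form inhibits, differed by −0.19 (adjusted p = 0.027, edgeR) and by 0.013 relative to chromosome 8 (adjusted p = 0.91), and without 1 library its adjusted p was up to 0.20.

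Respiratory complex I had 4 of 37 subunits higher and 7 lower, and all 7 are encoded on chromosomes 2, 3, 8, 19 or X. Ndufv1, a core subunit on chromosome 19, fell by 0.59, and relative to that chromosome the difference was −0.13 (adjusted p = 0.13, edgeR). Relative to the chromosomes only 2 subunits were higher and 1 lower, and in complexes II to V, with 4 of 39 higher and 9 lower, 1 was higher and 3 were lower. Of the 13 mRNAs of the mitochondrial genome 4 were called higher and none lower, by a median of 0.13, and they took 3.06 to 3.31% of the counts in gs2_B4, 2.80 to 2.99% in gs1B8 and 2.49 to 2.77% in parental cells. Without 1 library at a time the higher calls among them numbered 2 to 5, and these mRNAs have near copies in nuclear DNA with which reads could be shared. Mitochondrial biogenesis genes had 6 of 19 higher and 2 lower, and 6 and none relative to the chromosomes. Tfam, which packs mitochondrial DNA, rose by 0.22, and Lonp1, the matrix protease, by 0.24, both picked after their values were seen. The 77 mitochondrial ribosomal proteins had 17 higher and 14 lower.

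Genes of the ATF4 response, which mitochondrial stress is known to turn on, had 11 of 22 higher and 5 lower, with a median of 0.22, and 8 and 2 relative to the chromosomes. Cebpb, a transcription factor, differed by 1.29, Atf5, a transcription factor of mitochondrial stress, by 0.94, and Slc7a11, the cystine carrier, by 0.84, all higher in gs2_B4. Cebpb and Atf5 overlap Tmem189 and Nup62, with which reads could be shared. Other members of the same list fell: Psat1 and Phgdh, enzymes of serine synthesis, by 0.55 and 0.30, and the amino acid carrier Slc7a5 by 0.47. Psph, a further enzyme of serine synthesis, was higher by 0.28, a call that was lost without 1 library (adjusted p up to 0.09, edgeR). Relative to their chromosomes Slc7a5 was still lower, by −0.27, while Psat1 and Phgdh differed by −0.08 and −0.06 and did not pass. Psat1, Slc7a5, Phgdh and Psph were picked after their values were seen. Imprinted genes, measured from 1 parental allele in most tissues, had 4 of 7 higher and 1 lower: Impact averaged 36.3 CPM in gs2_B4, 15.1 in gs1B8 and 34.3 in parental cells, and Mest, the mesoderm-specific transcript, averaged 17 CPM in gs2_B4, 8.40 in gs1B8 and 6.93 in parental cells. Impact and Mest overlap Gm26407 and Copg2, so their reads are uncertain in part.

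Metabolic and stress lists were mostly balanced: 5 of 20 glycolysis genes were higher and 5 lower, 8 of 32 genes of the TCA cycle and fatty acid oxidation were higher and 9 lower, and 6 of 26 NRF2 and antioxidant genes were higher and 7 lower. Single enzymes differed strongly all the same. Ass1, argininosuccinate synthase of arginine synthesis, had 11.6, 11.9 and 11.3 CPM in gs2_B4, 37.96, 41.4 and 37.5 in gs1B8, and 38.9, 41.2 and 37.6 in parental cells, a difference of −1.75 ± 0.08 (SE; adjusted p = 1.1e-12, edgeR). Xdh, xanthine dehydrogenase of purine breakdown, had 12.7, 18.1 and 19.4 CPM in gs2_B4, 1.48, 1.14 and 1.14 in gs1B8, and 1.73, 1.80 and 1.43 in parental cells, a difference of 3.73 ± 0.17 (SE; adjusted p = 1.4e-12, edgeR). The clones did not overlap in either gene, and parental cells overlapped gs1B8 and not gs2_B4 in both. The glutathione transferase Gsta4 had 13.9, 20.7 and 13.4 CPM in gs2_B4, 52.2, 69.7 and 34.9 in gs1B8, and 34.6, 31.2 and 29.9 in parental cells, and the metal-binding protein Mt1 had 41.6, 38.0 and 37.1 CPM in gs2_B4, 11.7, 10.8 and 11.1 in gs1B8, and 11.5, 9.98 and 12.3 in parental cells. Cholesterol and fatty acid synthesis had 7 of 30 genes higher and 2 lower, one of the lower being the desaturase gene Scd1, by −0.95. Ulbp1, a ligand of the natural killer receptor NKG2D, had 76.5, 70.3 and 75.9 CPM in gs2_B4, 149.8, 150.5 and 150.7 in gs1B8, and 107.8, 105.5 and 111.8 in parental cells, so parental cells lay between the clones and no groups overlapped.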

How the data were processed

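PolyA RNA of 4T1 cells was sequenced from KAPA RNA HyperPrep libraries, per the labels' protocols. Trimmomatic 0.35, RSEM and GRCm38 (mm10) are named in the submitters' processing notes, without an RSEM version, aligner or strand setting. The values deposited by the authors are expected counts of RSEM, not normalized between libraries. 91.5% of the values were whole, and all were rounded.

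The test was edgeR 4.0.16 (R 4.3.3) on the knockout arm's 21 libraries (7 groups of 3), with a coefficient for each group, filterByExpr, TMM factors, the two-sided quasi-likelihood F test and Benjamini-Hochberg adjustment over 13941 genes. SE is that of the coefficient, derived from F. CPM use TMM-scaled totals. Distances used edgeR's log2 CPM with its default prior count, and chromosome medians of single libraries used log2 of CPM plus 0.5. On simulated data the test recovered 62% of 1.5-fold and 76% of 2-fold changes, with 4.83% of calls false. The simulation changed 200 of the 13941 genes, a smaller share than the 41.0% called in the data. Its rates therefore need not hold for those calls. Replicates within a clone differed beyond counting noise. Column names carry clone codes and a running library number, and neither they nor the labels name a run or batch. The 7 groups come round 3 times in column order, and each round is called a run here. Same-run libraries of the 2 clones correlated at 0.0649, 0.0466 and 0.115, and libraries of different runs at −0.13 to 0.0625. Runs were not taken as pairs in the main test, and a fit with the run as a block is given below.

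The clones, lists and tests were chosen with earlier results of these data known. Named genes were the 16 largest calls in each direction with at least 5 CPM and no overlap, up to 8 nearly silent genes in each direction, up to 4 calls per list, the 6 smallest p in each direction, up to 4 abundant calls of each chromosome described, and 7 fixed genes of fission, fusion and pyrimidine synthesis. Figures were drawn with matplotlib 3.10.9.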

Additional observations from a re-analysis of the deposited data

Results flagged for a closer look

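For 37 of the 220 genes chosen by the naming rule, both clones passed edgeR's test against parental cells in opposite directions, and the direct test between the clones passed as well. Over all 13941 tested genes there were 290 such opposite calls. The naming rule takes large differences between the clones and so favours such genes. Of the 37, the 22 with at least 1 CPM in all 3 groups are given here. The comparisons with parental cells share the same 3 parental libraries. Xlr, a lymphocyte-regulated gene of the X chromosome, differed by 5.52 between gs2_B4 and gs1B8 (log2), and by 4.47 in gs2_B4 and −1.05 in gs1B8 against parental cells. Its levels were 51.2, 56.2 and 54.4 CPM in gs2_B4, 1.39, 1.18 and 0.938 in gs1B8, and 2.31, 3.01 and 1.93 in parental cells, and its family has similar copies with which reads may be shared. Lncenc1, a long non-coding RNA known from mouse embryonic stem cells, differed by −3.98 between the clones. It had 12.2, 11.4 and 11.2 CPM in gs2_B4, 198.2, 176.8 and 176.2 in gs1B8, and 58.6, 59.0 and 53.4 in parental cells, and it overlaps Gm8756. Pmp22, a membrane protein of myelin and epithelia, differed by 3.77, with 20.6, 19.1 and 16.2 CPM in gs2_B4, 1.19, 1.52 and 1.35 in gs1B8, and 2.501, 2.25 and 1.89 in parental cells. In each of these 3 genes the parental libraries lay between the clones, with no overlap.

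Itgb2 differed by 3.40 between the clones, and by 1.83 in gs2_B4 and −1.57 in gs1B8 against parental cells. Sema3c differed by 3.22, and by 2.38 in gs2_B4 and −0.84 in gs1B8. Cxcl5 differed by 3.10, and by 1.90 in gs2_B4 and −1.21 in gs1B8. Spp1 differed by 2.79, and by 2.36 in gs2_B4 and −0.42 in gs1B8.

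The rest are given by their log2 difference between the clones alone. Positive values, where gs2_B4 lay above and gs1B8 below parental cells, were 4.77 for Gm9732, 1.80 for Fzd7, 0.944 for Atf5, 0.794 for Igfbp4, 0.691 for Sema3f, 0.612 for Epcam, 0.554 for Krt7, 0.546 for Myc, 0.505 for Tead2 and 0.468 for Cct5. Negative values, where gs2_B4 lay below and gs1B8 above parental cells, were −1.92 for Gsta1, −1.91 for Mfap3l, −1.72 for Spns2, −1.71 for Gsta4 and −1.02 for Ulbp1.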

How the results depend on the processing

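The 5713 calls between the clones became 5497 with DESeq2, 5720 with DESeq2's size factors, 5506 without the low-count filter, 6098 with only the 6 Drp1 KO libraries, 5186 with all 27 libraries, 5753 without ribosomal RNA genes, and 4890 to 5098 when 1 library was left out at a time. With at least a 2-fold difference required, 832 remained, 563 higher and 269 lower, and 1082 between the Fis1 KO and 1564 between the Mff KO clones; Dnm1l, at −0.74, falls below that size. With the run, taken from column order, as a replicate block, 6203 genes were called. All 219 named genes besides Dnm1l then stayed on the same side of the threshold. Taking away the chromosome median, an alternative added after the data were seen, gave 4409 calls. Of the 219 genes, 161 stayed on the same side of the threshold in it, 45 no longer passed and 13 turned sign: Anxa1 (0.14), Apoo (0.048), Dhodh (0.013), Eif3a (0.11), Hnrnpa1 (−0.12), Msn (0.021), Ndufs8 (0.021), Pprc1 (0.074), Prps1 (0.0083), Rcl1 (0.065), Rrp12 (0.089), Ssr3 (0.0059) and Syvn1 (0.13). By its construction this removes any shift shared by a chromosome. With 1 clone on each side the differences belong to these clones, and 3 libraries per clone limit small differences.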
